A study of Homo sapiens with 8 samples.

Results

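Amino acid transporters are membrane carriers of the solute carrier (SLC) superfamily, and they are described here in U87 cells, an established human glioblastoma line, after silencing of RND3 (RhoE), an atypical small GTPase. The members were all genes whose symbol is SLC1A, SLC3A, SLC6A, SLC7A, SLC36A, SLC38A or SLC43A followed by a number. The rule used symbols only and no measured value. It found 60 genes, read by 78 probes, among the 19483 genes named on the array. Of these, 41 members and 14805 genes of all kinds were bright enough to be tested.

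The data were 8 single-colour Agilent arrays of total RNA. At 24 h after reverse transfection there were 3 arrays of cells given non-silencing control oligos (siControl, labelled NSC) and 3 arrays of cells given siRNA against RND3 (siRND3, labelled RhoE KD). At 48 h there was 1 array of each kind. All cells received the same transfection reagent and were grown in medium with serum and added L-glutamine, and the labels name no other alteration of the line. A pair of RND3 oligos is described in the methods, and the labels do not say which one each siRND3 array received. Nor do they say whether the numbered replicates were separate transfections, so the p-values below measure the spread between these arrays, which may be technical.

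Values are log2 intensities of the scanner's processed signal, quantile-normalised over the 8 arrays. A difference of 1 on this scale is a doubling of the signal. Probes differ in brightness for reasons of their own, so only the same probe is compared between arrays, and the level of one transporter is not set against that of another. Adjusted p-values are limma's, corrected by the Benjamini-Hochberg method across the 28762 probes tested. A gene passed when at least 1 of its probes had an adjusted p under 0.05 and none passed in the opposite direction. With 1 array per group at 48 h, every test that uses those arrays borrows the spread of the 24 h arrays. RNA per cell and number of cells cannot be told apart in such bulk samples.

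The share of probes well above background was between 68.3% and 70.7%. Arrays of one group at 24 h correlated at 0.991 or more over the tested probes, and arrays of different groups at 0.987 or more. The RND3 probe read 11.88, 11.91 and 11.90 in siControl and 10.13, 10.18 and 10.41 in siRND3 at 24 h, a difference of -1.66 (SE 0.09, adjusted p 0.000339). It read 11.48 and 9.83 in the single arrays at 48 h. The targeted gene was therefore lower on each array labelled as knockdown, at 31.7% of the control signal at 24 h. All siControl arrays lay in row 2 of the single slide and all siRND3 arrays in row 1, and the effect of the row cannot be told apart from that of the siRNA. Of 9 glioma and mesenchymal markers, 6 were tested: VIM and CD44 were above background on all 8 arrays, while GFAP and SOX2 were above it on none. CD44, a surface receptor of mesenchymal glioma cells, was lower in siRND3 at 24 h (-0.56, adjusted p 0.00855), OLIG2, a factor of the oligodendrocyte lineage, was lower too (-1.40, adjusted p 0.00166), and NES, an intermediate filament of neural progenitors, was higher by 1 of its 2 probes (0.41, adjusted p 0.0448). Among markers of other cell types, the neuron genes SNAP25 (-0.42, adjusted p 0.019) and SYT1 by 1 of 2 probes (-0.49, adjusted p 0.0249) and the endothelial genes KDR (-1.11, adjusted p 0.0398) and PECAM1 (-0.99, adjusted p 0.0212, by 1 of 2 tested probes, and -0.58, adjusted p 0.0653, by the other) were lower, CDH5 lay at 0.31 (adjusted p 0.0595), while RBFOX3, STMN2 and CLDN5 were above background on no array. GAD1, the other neuron gene tested, did not pass. By the brightest probe of each gene, 2 of the 3 tested neuron genes lay below 0 and 1 above. The smallest adjusted p was 0.212 over the 4 leukocyte genes tested and 0.195 over the 3 epithelial genes. The log2 of the summed signal lay between 11.27 and 11.33 in siControl and between 10.96 and 11.06 in siRND3 for the neuron list, and between 8.46 and 8.64 against 8.33 and 8.45 for the endothelial list. For the glioma list it lay between 17.78 and 17.86 against 17.57 and 17.73. The part of these markers in the transporter results was not tested.

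Amino acid carriers set how much of each amino acid a cell can take up, exchange or release from its lysosomes. Members of the SLC7 family that exchange neutral amino acids or cystine reach the surface as a dimer with a glycoprotein of the SLC3 family. SLC1 genes encode sodium-driven glutamate and neutral amino acid carriers, SLC38 and SLC36 genes encode carriers of small neutral amino acids at the surface or on the lysosome, SLC43 genes encode facilitative carriers, and the SLC6 family holds amino acid carriers together with those for monoamines, GABA, creatine and taurine. In glioblastoma the cystine/glutamate exchanger is known for releasing glutamate while importing cystine for glutathione.

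At 24 h, 9 of the 41 tested transporters were lower in siRND3 and 2 were higher. The lower ones were SLC7A11, SLC7A5, SLC43A2, SLC38A7, SLC36A1, SLC38A1, SLC1A1, SLC1A3 and SLC6A15, and the higher ones were SLC6A8 and SLC38A9. Of all genes tested, 9.29% were lower and 7.35% were higher. The median difference was -0.06 over the 41 members and 0.04 over all genes. By family, the genes that passed were 2 of 5 in SLC1, 2 of 6 in SLC7, 1 of 2 in SLC36, 3 of 9 in SLC38, 1 of 3 in SLC43 and 2 of 14 in SLC6, and neither tested SLC3 gene passed. Under the SAM test that the study used, at a false discovery rate of 5%, 12 members were lower and 3 higher, and these included all 11 found by limma. The members called by SAM but not by limma were SLC3A1, SLC43A3 and SLC7A6, which were lower, and SLC1A7, which was higher.

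**Figure D1:**
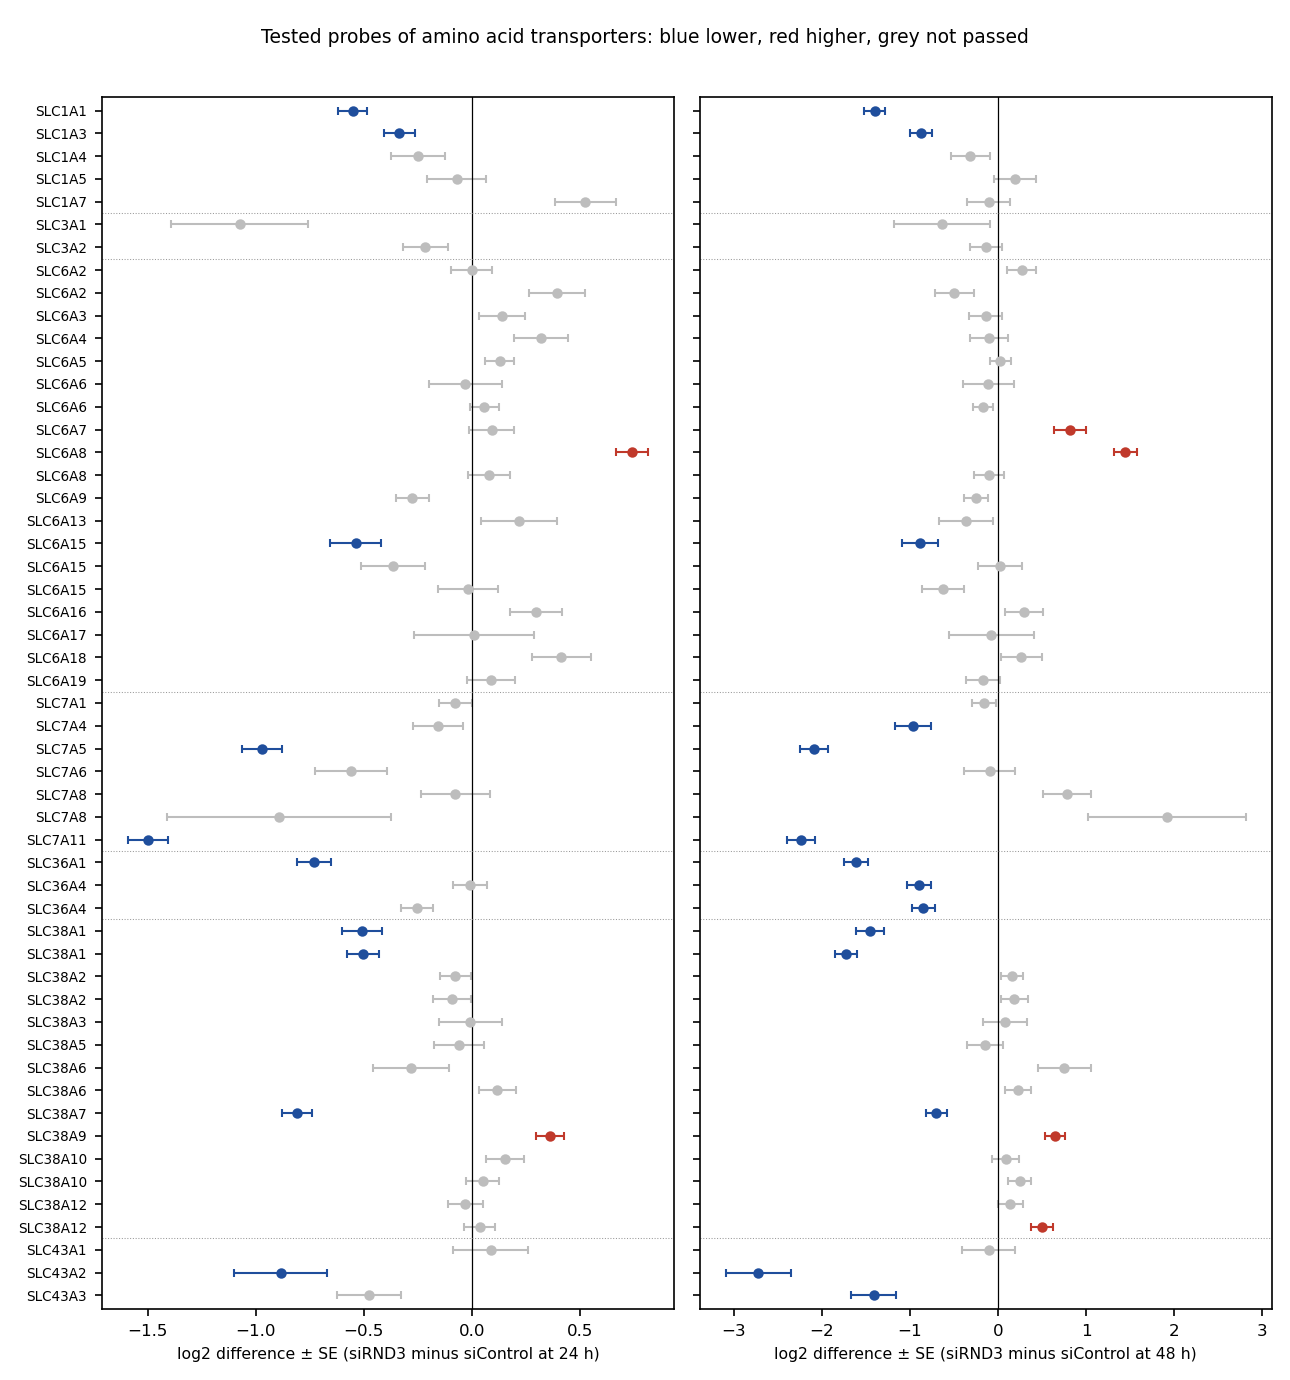
Log2 difference (siRND3 minus siControl) of the 53 tested probes of amino acid transporters, at 24 h on the left and 48 h on the right, with standard errors as bars; dotted lines separate the SLC families, the axes have different ranges, and a gene with several probes has several rows. Blue probes were lower and red probes higher at an adjusted p under 0.05; SLC7A11 lies farthest to the left at 24 h, at -1.50, and SLC43A2 at 48 h, at -2.72.

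SLC7A11, the light chain of the cystine/glutamate exchanger, had the largest fall among the members at 24 h. Its probe read 11.25, 11.22 and 11.27 in siControl and 9.82, 9.57 and 9.84 in siRND3. The groups did not overlap, and the difference was -1.50 (SE 0.09, adjusted p 0.000462), leaving 35.3% of the control signal. By 48 h it stood at 10.55 in siControl and 8.32 in siRND3, a difference of -2.24 (SE 0.16, adjusted p 0.000576) or 21.2% of control. Each of the 6 fits at 24 h that left out 1 array gave a difference between -1.55 and -1.41.

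SLC7A5, the light chain of the exchanger that imports leucine and other large neutral amino acids, had the next largest fall at 24 h among the members that passed. It read 9.14, 9.11 and 9.22 in siControl and 8.03, 8.26 and 8.26 in siRND3 at 24 h. The siRND3 arrays were all below the siControl arrays, by -0.97 (SE 0.09, adjusted p 0.00171), or 51.0% of control. At 48 h the values were 8.80 and 6.71, a difference of -2.09 (SE 0.16, adjusted p 0.000631), or 23.5% of control.

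SLC3A2 encodes the CD98 heavy chain that both of these light chains pair with, and it did not pass at either time. Its probe read 11.79, 11.63 and 11.91 in siControl and 11.46, 11.69 and 11.54 in siRND3, with overlapping groups and a difference of -0.21 (SE 0.10, adjusted p 0.238). The 48 h arrays read 11.34 and 11.20 (difference -0.13, SE 0.18, adjusted p 0.715). Within each array the gap between SLC7A11 and SLC3A2 widened by 1.29 in siRND3 at 24 h and that between SLC7A5 and SLC3A2 by 0.76. In both cases the gap was wider on each of the 3 siRND3 arrays than on any siControl array, and the two-sided exact permutation p was 0.1, the smallest that 3 arrays against 3 can give. SLC3A1, the partner of the cystine carrier of kidney and gut, lay at -1.08 with a wide error (SE 0.32, adjusted p 0.0782).

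**Figure D2:**
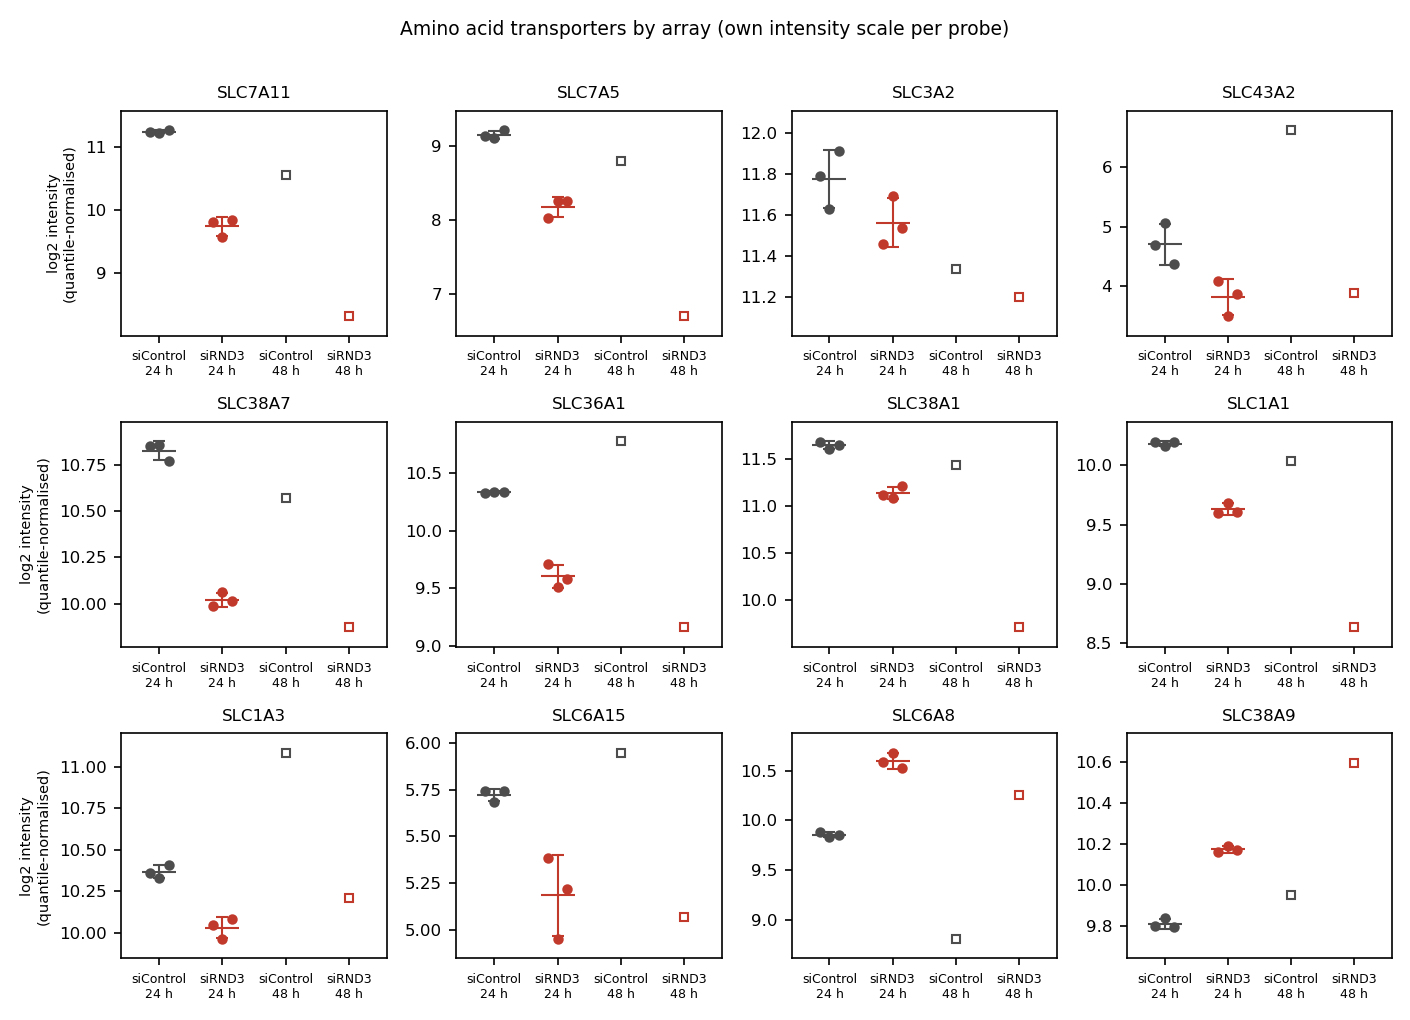
Log2 intensity on each of the 8 arrays for the 11 transporters that passed at 24 h and for SLC3A2, each panel on its own scale; filled circles are arrays at 24 h with their mean and SD, open squares the single arrays at 48 h, grey siControl and red siRND3. Each panel shows 1 probe per gene, the one with the smallest adjusted p at 24 h. In every panel but SLC3A2 the 24 h groups are apart, with SLC6A8 and SLC38A9 higher in siRND3 and the others lower. The SLC6A8 probe not drawn and 1 of the SLC6A15 probes not drawn had overlapping groups.

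None of the other tested SLC7 members passed in limma at 24 h. SLC7A1, the main carrier of arginine and lysine in most cells, differed by -0.08 at 24 h (adjusted p 0.577) and -0.16 at 48 h (adjusted p 0.514). SLC7A6, which exchanges cationic against neutral amino acids, lay at -0.56 at 24 h without passing (adjusted p 0.08). SLC7A8, a second light chain for large neutral amino acids, had 2 tested probes and neither passed at 24 h or 48 h. They gave -0.08 and -0.89 at 24 h (adjusted p 0.797 and 0.317). At 48 h they gave 0.79 and 1.92 (SE 0.27 and 0.90, adjusted p 0.101 and 0.209). The second of these probes was dim, well above background on only 5 of the 8 arrays, and read 2.03 in siControl at 48 h. The gene did pass at 48 h with normexp background correction, with the deposited values, and without siRND3 replicate 2 or 3. SLC7A4, a relative of the cationic carriers whose own transport is not established, did not pass at 24 h (-0.16, adjusted p 0.432). At 48 h it read 8.12 in siControl and 7.16 in siRND3, a difference of -0.97 (SE 0.20, adjusted p 0.0196).

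Among the facilitative carriers, SLC43A2, which lets branched-chain amino acids and phenylalanine leave or enter the cell, was dim. It read 4.69, 5.06 and 4.37 in siControl and 4.09, 3.50 and 3.87 in siRND3 at 24 h, a difference of -0.89 (SE 0.22, adjusted p 0.0464). The groups were apart by little, and the call did not hold when siControl replicate 1 or 2 or any siRND3 replicate was left out (adjusted p up to 0.119), nor with the deposited log2 values, where the difference was -0.19. The 48 h values were 6.62 and 3.89, a difference of -2.72 (SE 0.37, adjusted p 0.00432) that was -1.49 with the deposited values and still passed. SLC43A3, known as a carrier of purine bases, read 11.78, 11.30 and 11.59 in siControl and 10.88, 11.20 and 11.15 in siRND3 at 24 h, a difference of -0.48 that did not pass (SE 0.15, adjusted p 0.0903). At 48 h it read 11.88 and 10.46, a difference of -1.41 (SE 0.26, adjusted p 0.0122). SLC43A1 passed at neither time (0.09 at 24 h, adjusted p 0.788).

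The sodium-driven glutamate carriers SLC1A1 and SLC1A3 were both lower. SLC1A1 (EAAT3), the carrier of neurons and many epithelia, read 10.19, 10.16 and 10.19 in siControl and 9.60, 9.69 and 9.61 in siRND3 at 24 h. The groups did not overlap and the difference was -0.55 (SE 0.07, adjusted p 0.00472). At 48 h the values were 10.03 and 8.63, a difference of -1.40 (SE 0.12, adjusted p 0.000838) or 37.9% of control. SLC1A3 (EAAT1), the carrier of astrocytes and radial glia, read 10.36, 10.33 and 10.41 in siControl and 10.05, 9.96 and 10.08 in siRND3. This was a difference of -0.34 (SE 0.07, adjusted p 0.0313), and leaving out any 1 of the 6 arrays took its adjusted p to between 0.0531 and 0.129. The SLC1A3 signal at 48 h was 11.08 and 10.21, a difference of -0.88 (SE 0.12, adjusted p 0.0048).

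SLC1A5, the exchanger through which many tumour cells take up glutamine, did not pass. It read 10.18, 10.09 and 10.23 in siControl and 9.996, 10.39 and 9.91 in siRND3 at 24 h, with the siRND3 arrays on either side of the control range (difference -0.07, SE 0.14, adjusted p 0.781). At 48 h the difference was 0.19 (SE 0.23, adjusted p 0.673). SLC1A4, a carrier of alanine, serine and cysteine, and SLC1A7, a glutamate carrier of the retina, did not pass either (-0.25, adjusted p 0.254, and 0.53, adjusted p 0.0611). SLC1A7 did pass at 24 h under SAM, with scaling to the 75th percentile, and without siRND3 replicate 1. SLC1A2, the main glutamate carrier of astrocytes in the adult brain, cleared the background on only 2 of 8 arrays and was not tested.

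The SLC38 family holds surface carriers of glutamine and relatives that lie on the lysosome. SLC38A1, a sodium-driven glutamine carrier of the surface, had 2 probes that gave nearly the same fall. The first read 12.30, 12.24 and 12.22 in siControl and 11.69, 11.63 and 11.91 in siRND3 at 24 h (-0.51, SE 0.09, adjusted p 0.0189), and the second read 11.68, 11.60 and 11.64 against 11.11, 11.09 and 11.21 (-0.50, SE 0.07, adjusted p 0.00825). Both pairs of groups were apart, and the signal was 70.3% and 70.5% of control. Without any 1 array the second probe still passed (adjusted p up to 0.0469). The first did not pass without any 1 siControl array, nor without siRND3 replicate 1 or 2 (adjusted p up to 0.0741). At 48 h the same probes gave -1.45 (SE 0.16, adjusted p 0.00202) and -1.72 (SE 0.12, adjusted p 0.000583).

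SLC38A2, the close relative of SLC38A1 that cells induce when amino acids run short, did not move with the knockdown at 24 h. Its probes gave -0.08 (adjusted p 0.529) and -0.09 (adjusted p 0.551), with overlapping groups, and at 48 h 0.16 (adjusted p 0.469) and 0.18 (adjusted p 0.512). SLC38A5, another glutamine carrier of the surface, also did not pass (-0.06 at 24 h, adjusted p 0.781).

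SLC38A7, which exports glutamine from the lysosome, read 10.86, 10.86 and 10.77 in siControl and 9.99, 10.06 and 10.01 in siRND3 at 24 h. The groups lay far apart for their spread, with a difference of -0.81 (SE 0.07, adjusted p 0.00123) or 57.1% of control. At 48 h the values were 10.57 and 9.87, a difference of -0.70 (SE 0.12, adjusted p 0.00984). SLC38A9, the lysosomal carrier that signals arginine to the growth regulator mTORC1, was higher instead. It read 9.80, 9.84 and 9.79 in siControl and 10.16, 10.19 and 10.17 in siRND3, a difference of 0.36 (SE 0.06, adjusted p 0.0176), and 9.95 and 10.60 at 48 h, a difference of 0.65 (SE 0.11, adjusted p 0.0102). The 24 h groups did not overlap, but with any 1 siControl array left out the adjusted p at 24 h was above the threshold, at most 0.089.

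SLC38A12, listed until recently as TMEM104, passed at 48 h by 1 of 2 probes (0.50, SE 0.12, adjusted p 0.0347, against 0.14, adjusted p 0.609, for the other). That call did not hold in the fits without 1 siControl array, where the adjusted p reached 0.0738. SLC38A3, SLC38A6 and SLC38A10 passed at neither time.

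SLC36A1, the proton-coupled carrier of small neutral amino acids on the lysosome, read 10.33, 10.34 and 10.34 in siControl and 9.72, 9.52 and 9.58 in siRND3 at 24 h. The difference was -0.73 (SE 0.08, adjusted p 0.00291), or 60.2% of control, with the groups well apart. At 48 h it read 10.78 and 9.16, a difference of -1.62 (SE 0.14, adjusted p 0.000853). SLC36A4, a related carrier of tryptophan and proline, had 2 tested probes that did not pass at 24 h (-0.01, adjusted p 0.963, and -0.25, adjusted p 0.0816). At 48 h both were lower, at -0.90 (SE 0.14, adjusted p 0.00675) and -0.85 (SE 0.13, adjusted p 0.00687).

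In the SLC6 family, most of the 14 tested genes did not pass at 24 h, and those that passed differed in direction. SLC6A8, the creatine transporter, was higher by 1 of 2 probes. That probe read 9.88, 9.83 and 9.85 in siControl and 10.59, 10.68 and 10.52 in siRND3 at 24 h, a difference of 0.74 (SE 0.07, adjusted p 0.00217). At 48 h it read 8.81 and 10.25, a difference of 1.45 (SE 0.13, adjusted p 0.00101). The other probe read 10.20, 10.26 and 10.19 in siControl and 10.13, 10.44 and 10.30 in siRND3 (0.08, SE 0.10, adjusted p 0.644), and -0.10 at 48 h (adjusted p 0.769). The probes disagreed, and with the mean of both the difference was 0.41 at 24 h (adjusted p 0.0237). SLC6A8 has near-identical copies elsewhere in the human genome, so its probe signals may be shared and the gene's value is uncertain.

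SLC6A15, a carrier of branched-chain amino acids and proline in neurons, was lower by 1 of 3 probes. That probe read 5.74, 5.69 and 5.74 in siControl and 5.38, 4.95 and 5.22 in siRND3 at 24 h (-0.54, SE 0.12, adjusted p 0.0345), while the other 2 gave -0.37 (adjusted p 0.164) and -0.02 (adjusted p 0.951). The mean of the 3 probes gave -0.31 with an adjusted p of 0.0937, and the call also did not hold without any 1 siControl array or without siRND3 replicate 3 (adjusted p up to 0.113). At 48 h the first probe read 5.95 and 5.07, a difference of -0.88 (SE 0.20, adjusted p 0.0286), which did not hold without any 1 siControl array (adjusted p up to 0.0563). The other 2 probes did not pass at 48 h, at 0.02 (adjusted p 0.973) and -0.63 (adjusted p 0.13). Nor did the mean of the 3 probes, at -0.49 (adjusted p 0.0958). SLC6A7, the brain proline transporter, did not differ beyond the spread at 24 h (0.09, adjusted p 0.62), and at 48 h it read 4.93 and 5.75, a difference of 0.82 (SE 0.18, adjusted p 0.0239). SLC6A6, the taurine transporter, passed by neither of its probes at either time (-0.03 and 0.06 at 24 h), and SLC6A9, a glycine transporter, lay at -0.28 (adjusted p 0.0684).

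At 48 h, 12 of the 41 tested transporters were lower in siRND3 and 4 were higher, against 13.5% lower and 14.3% higher among all genes tested. The median difference was -0.13 over the members and 0.06 over all genes. All 11 members that passed at 24 h passed at 48 h in the same direction, and SLC36A4, SLC43A3, SLC7A4, SLC6A7 and SLC38A12 joined them. Of the 11, SLC6A8 passed by only 1 of 2 probes and SLC6A15 by only 1 of 3 at both times. The 2 times have no array in common, but both tests use the spread of the 24 h arrays.

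The knockdown difference at 48 h was compared directly with that at 24 h. It was more negative at 48 h for 5 of the 41 members, while 2.61% of all genes passed in this direction. These were SLC38A1 by 1 of 2 probes (-1.22, SE 0.14, adjusted p 0.0232), SLC7A5 (-1.12, SE 0.18, adjusted p 0.0366), SLC36A4 by 1 of 2 probes (-0.89, SE 0.16, adjusted p 0.0451), SLC36A1 (-0.88, SE 0.16, adjusted p 0.0434) and SLC1A1 (-0.85, SE 0.13, adjusted p 0.0363). No member passed in limma in the positive direction, in which 1.72% of all genes did, and 5 members had an unadjusted p under 0.05 there. SLC7A11 (-0.74, adjusted p 0.0985) and SLC43A2 (-1.84, adjusted p 0.0834) did not pass this comparison. All 5 calls were lost when any 1 siControl array was left out, with adjusted p up to 0.103 for SLC1A1, 0.099 for SLC7A5, 0.12 for SLC36A1, 0.103 for SLC36A4 and 0.0788 for SLC38A1, and between 1 and 2 held without 1 siRND3 array.

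**Figure D3:**
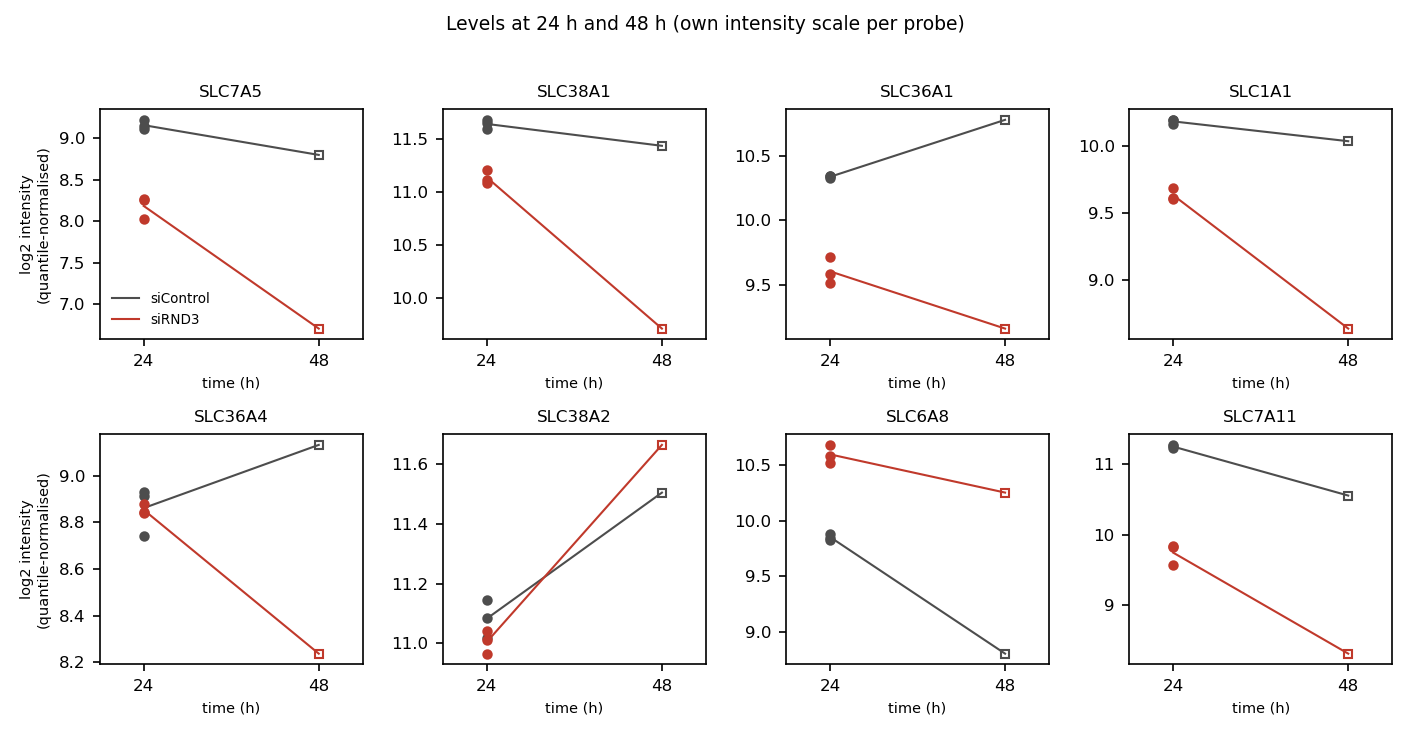
Log2 intensity at 24 h (filled circles, 3 arrays) and 48 h (open squares, 1 array) in siControl (grey) and siRND3 (red), with lines from the 24 h mean to the 48 h value, each panel on its own scale and 1 probe per gene. In SLC7A5, SLC38A1, SLC36A1, SLC1A1 and SLC36A4 the red line falls away from the grey one, SLC38A2 goes up in both, and SLC6A8 and SLC7A11 go down in both.

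The change of control cells with time rests on 1 array at 48 h. In siControl, 2 of 41 members were higher at 48 h than at 24 h and 2 were lower, against 1.22% and 4.03% of all genes. SLC1A3 was higher by 0.72 (SE 0.10, adjusted p 0.0219) and SLC43A2 by 1.91 (SE 0.30, adjusted p 0.0294). SLC6A8 fell by 1.05 (SE 0.10, adjusted p 0.0117, 1 of 2 probes) and SLC7A11 by 0.69 (SE 0.13, adjusted p 0.0448). At most 1 of the 4 calls held with any 1 siControl array left out.

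In siRND3 cells, 5 of 41 members were lower at 48 h and 3 were higher, against 9.32% and 3.65% of all genes. SLC7A5 fell by 1.48 (adjusted p 0.0035), SLC7A11 by 1.43 (adjusted p 0.0037), SLC38A1 by 1.42 and 1.12 (adjusted p 0.00238 and 0.00652), SLC1A1 by 1.00 (adjusted p 0.0041) and SLC36A4 by 0.62 and 0.53 (adjusted p 0.0231 and 0.0306). Higher were SLC38A2 by both probes (0.66, adjusted p 0.0138, and 0.79, adjusted p 0.0147), SLC6A7 (0.79, adjusted p 0.025) and SLC38A9 (0.42, adjusted p 0.038). The SLC38A9 call did not hold without any 1 of the 24 h arrays (adjusted p up to 0.0952), that of SLC6A7 without siRND3 replicate 2 or 3 (up to 0.0559), and that of SLC36A4 without siControl replicate 1 (0.0521 by its first probe). In siControl the SLC38A2 probes differed by 0.42 (adjusted p 0.0798) and 0.52 (adjusted p 0.0801). Its time difference was not distinguishable between siRND3 and siControl (0.24, adjusted p 0.451, and 0.27, adjusted p 0.488). These time comparisons use the same arrays as the knockdown comparisons above.

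Of the 60 members, 39 had a probe well above background on all 8 arrays. There were 15 with no probe above background on any array: SLC1A6, SLC6A12, SLC6A14, SLC6A20, SLC7A2, SLC7A3, SLC7A9, SLC7A10, SLC7A13, SLC7A14, SLC36A2, SLC36A3, SLC38A4, SLC38A8 and SLC38A11. Many of these are known from kidney, gut, liver, retina or muscle. SLC1A2, SLC6A11 and SLC7A7 were above it on some arrays but too few to be tested. The remaining tested members that passed in no comparison, beside those named above, were SLC6A2, SLC6A3, SLC6A4, SLC6A5, SLC6A13, SLC6A16, SLC6A17, SLC6A18 and SLC6A19.

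Several of these carriers are known targets of ATF4, the factor that cells use when amino acids run short and that binds an amino acid response element. The promoter of SLC7A11 was not analysed here. The letters TGATGNAA, the core of this element, were searched on both strands in the RefSeq promoter windows (GRCh38.p14, 250 bases before to 50 after each start). They were found in 6 of the 67 windows held for 45 member genes (8.96%) and in 3.62% of all 35116 windows. The matches with up to 10 bases on each side are shown for SLC38A1 and SLC1A3, which were lower in siRND3, and for SLC1A5 and SLC3A2, which did not pass. Each is written on the strand of its gene, 5′ to 3′, with the match in capitals, and SLC1A4 and SLC7A1 held the other 2.
SLC38A1, chr12:46266503-46266530, minus strand: cagacccgaaTGATGAAAagggatcagc
SLC1A3, chr5:36596358-36596385, plus strand: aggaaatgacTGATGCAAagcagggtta
SLC1A5, chr19:46784894-46784921, minus strand: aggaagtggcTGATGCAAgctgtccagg
SLC3A2, chr11:62881726-62881748, plus strand, match on the opposite strand: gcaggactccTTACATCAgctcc

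The letters TGACNNNGC, the core of the antioxidant response element that the factor NRF2 binds, were searched the same way and were in 7 of the 67 member windows (10.4%) against 13.3% of all windows. The pair formed by SLC7A5, which was lower, and its partner SLC3A2, which did not pass, both held a match, and the matches of the 2 motifs did not overlap in SLC3A2. A match is a run of letters and not a shown binding site.
SLC7A5, chr16:87869491-87869519, minus strand: gcggggttccTGACGCAGCtgcgggcggc
SLC3A2, chr11:62881652-62881680, plus strand: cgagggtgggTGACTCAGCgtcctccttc

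Other genes of the amino acid response were read beside the transporters. Of 21 listed, 14 did not pass at 24 h, and the median of the list was -0.21 against 0.04 over all genes. The other 7 were lower, against 9.29% of all genes tested. They included STC2, a secreted glycoprotein (-0.68, SE 0.10, adjusted p 0.00794), DDIT4, an inhibitor of mTORC1 (-0.67, SE 0.07, adjusted p 0.00284), ATF3, a stress-induced factor (-0.60 and -0.64 by 2 of 4 probes, adjusted p 0.00694 and 0.0194, against 0.12 and -0.30, adjusted p 0.653 and 0.101, by the others), and PSAT1, an enzyme of serine synthesis (-0.61, SE 0.10, adjusted p 0.0145). At 48 h 8 were lower and 1 was higher, against 13.5% and 14.3% of all genes. The higher one was TRIB3, an inhibitor of ATF4 (0.72, SE 0.15, adjusted p 0.0197). STC2 lay at -1.96 (adjusted p 0.000887).

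Of 25 tested genes through which amino acids reach mTORC1, 3 were lower at 24 h, LAMTOR3 and RHEB among them, and 1 was higher. Among all genes tested, 9.29% were lower at that time and 7.35% were higher. LAMTOR3, a subunit of the lysosomal Ragulator anchor, gave -0.66 (SE 0.07, adjusted p 0.00295), and RHEB, the GTPase that activates mTORC1, -0.53 (SE 0.09, adjusted p 0.0162). FNIP2, a partner of folliculin, was higher (0.79, SE 0.13, adjusted p 0.0148). The direction of this list was mixed, as it was for the lysosomal carriers SLC38A9, SLC38A7 and SLC36A1, and its median was 0.07. At 48 h 4 were higher and 2 were lower, against 14.3% and 13.5% of all genes. The higher ones included FNIP2 at 1.77 (adjusted p 0.00365) and RRAGD, a Rag GTPase, at 0.98 (adjusted p 0.00441). Among the lower ones RHEB lay at -1.82 (adjusted p 0.000957).

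Of 19 tested enzymes of glutamine, glutamate and glutathione, 1 was higher at 24 h, against 7.35% of all genes. It was GPT2, a mitochondrial transaminase (0.34, adjusted p 0.0409). At 48 h 4 were lower and 2 were higher, against 13.5% and 14.3% of all genes. Among the lower ones were GGT5 (-1.72, adjusted p 0.00093) and BCAT1, which transaminates branched-chain amino acids (-1.23, adjusted p 0.00484, by 1 of 2 probes, and -0.10, adjusted p 0.703, by the other). The higher ones were GPT2 (0.69, adjusted p 0.0159) and ARG2 (0.95, adjusted p 0.0166). Of 13 tested carriers outside the 7 families, the nearest to passing at 24 h was SLC25A12, a mitochondrial aspartate/glutamate carrier (0.27, adjusted p 0.0546). At 48 h it was higher (0.61, adjusted p 0.0167), as were SLC25A18 and SLC25A22, 2 mitochondrial glutamate carriers (1.26, adjusted p 0.0037, and 0.82, adjusted p 0.0179), while SLC25A15, the ornithine carrier, was lower (-0.56, adjusted p 0.0312).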

How the data were processed

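Total RNA of 8 U87 samples was labelled with Cy3 and hybridised to Agilent human 8x60k arrays. Per the file headers, the authors' scanner files were made with Feature Extraction 10.7.3.1 and hold background-subtracted intensities (the processed signal), 62976 spots each, of which 58717 were not control spots. The deposited value table holds log2 intensities that the authors normalised by quantiles, in the rank order of each spot's median signal before background subtraction, and was used as an alternative. Outlier spots (0.364% to 0.53% per array) were left out, spots of a probe were averaged to 42405 probes, and 25422 probes (60.0%) were named through their RefSeq accession (GRCh38.p14). Log2 signals were quantile-normalised over the 8 arrays, and 28762 probes well above background on every array of at least 1 group at 24 h were kept.

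The comparison at 24 h was fitted with limma 3.58.1 (R 4.3.3) on the 6 arrays of that time, and the others on all 8 arrays as 4 groups. The study's own test, SAM at a false discovery rate of 5%, was run as an alternative with its 20 possible assignments. The other alternatives were scaling to the 75th percentile, normexp background correction (offset 50), normalisation over the 24 h arrays, keeping dim probes, requiring signal on all 24 h arrays, the replicate block, 1 model of treatment and time, the mean of a gene's probes, and leaving out each 24 h array. Replicate numbers recur across groups, but the deviations of same-numbered arrays correlated at 0.002, -0.012 and 0.128, so the numbers were not taken as pairs. All 8 arrays were on 1 slide, with siControl and siRND3 in different rows. Their number limits the precision.

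The genes named were RND3, every member that passed in any comparison, SLC3A2, SLC7A5, SLC7A11, SLC1A5, SLC1A3, SLC1A2, SLC38A1 and SLC38A2 whatever their values, and at most 4 per direction from each other list; the remaining members are given by counts, ranges and names. Members and lists were chosen with earlier results of these data known. A few single genes are not reported here.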

Additional observations from a re-analysis of the deposited data

Results flagged for a closer look

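For 5 transporters the knockdown difference at 48 h was not the same as that at 24 h by a test of the difference itself (limma, 4-group model). The knockdown difference was more negative at 48 h by -0.8491 for SLC1A1, -1.1175 for SLC7A5, -0.8845 for SLC36A1, -0.888 for SLC36A4 (1 of 2 probes) and -1.2179 for SLC38A1 (1 of 2 probes). Each value rests on 1 siControl and 1 siRND3 array at 48 h, and none of the 5 passed when any 1 siControl array at 24 h was left out.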

How the results depend on the processing

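The counts of transporters that passed depended on the processing as follows. At 24 h, 2 were higher, and with the replicate block 1 was, SLC38A9 being lost; leaving out 1 array gave between 1 and 3. The count of 9 lower at 24 h was 6 with the replicate block, and between 6 and 8 with 1 array left out. At 48 h, 16 changed, and leaving out 1 array gave between 14 and 17. The 5 members whose knockdown difference changed between the times became 8 under normexp background correction and 0 under the replicate block, with 5 higher and 11 lower at an unadjusted p under 0.05, and 0 to 2 with 1 array left out. The 4 changes with time in siControl became 2 with no filter on dim probes, 0 with the replicate block (6 higher and 4 lower at an unadjusted p under 0.05) and 0 to 4 with 1 array left out. The 8 in siRND3 became 13 under normexp, 0 with the replicate block (4 higher and 9 lower unadjusted) and 6 to 8 with 1 array left out. The block spends degrees of freedom on replicate numbers whose deviations correlated little between the groups. The labels do not say whether same-numbered arrays belong together. At 24 h such arrays lay in the same slide column. For the single transporters and RND3, 953 values kept their side of the threshold, 128 no longer passed, 10 newly passed, and no value that passed changed sign. Differences near 0 that did not pass changed sign under some alternatives: SLC1A5 lay between -0.21 and 0.02 at 24 h and between -0.08 and 0.16 for 48 h minus 24 h in siRND3, and the knockdown difference of RND3 at 48 h minus that at 24 h was -0.05 without siRND3 replicate 1. The falls of SLC7A11, SLC7A5, SLC36A1, SLC38A7, SLC1A1 and SLC38A1 (1 of 2 probes), and the rise of SLC6A8, passed at 24 h under every alternative run. With the mean of its probes SLC6A8 lay at 0.41 at 24 h and 0.67 at 48 h. Under normexp SLC43A2 lay at -0.15 at 24 h and -1.06 at 48 h, SLC6A15 at -0.24 and -0.38, and SLC6A7 at 0.33 at 48 h. No scaling moved the median of all genes by more than 0.1.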
